A study of Homo sapiens with 8 samples.

Results

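The genes described here are 10 members of the endoplasmic reticulum (ER) folding machinery, measured in colorectal cancer cells with and without the compound Z325. They are HSPA5, HSP90B1, CALR, PDIA4, PDIA6, DNAJB9, DNAJB11, HERPUD1, EDEM1 and XBP1. The genes were chosen by name as the chaperones, degradation factors and transcription factor that mark the unfolded protein response. All 10 were listed among the 63241 genes measured in NCI-H716 cells. Only 5 of them (PDIA4, PDIA6, DNAJB9, DNAJB11 and EDEM1) were listed among the 28043 genes of the HCT116 table used here, which covers chromosomes 1 to 8 and the first part of 9. The other 5 were not analysed here in HCT116.

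The study examined Z325 (ZINC000101867325), a small molecule picked by docking as a candidate inhibitor of the fibroblast growth factor receptors, and sequenced RNA from control cells and cells given Z325. HCT116 is an epithelial human colorectal carcinoma line, and NCI-H716 is a human colorectal carcinoma line with enteroendocrine features. Each combination of line and treatment was represented by 2 libraries, 8 in all, amplified from about 100 cells per reaction. The labels name no engineered allele or clone in either line and give neither the dose nor the exposure time of these libraries. The study calls the libraries of a group biological duplicates. The p-values measure the spread between these libraries only. Total counts ran from 10210272 to 19738881 in NCI-H716 and from 13183792 to 13396225 in 3 of the HCT116 libraries. The remaining HCT116 library, Z325 replicate 2, held 3434620. In NCI-H716 control cells, the enteroendocrine transcript GCG (proglucagon) averaged 2278 CPM (counts scaled to a common library total after TMM normalization). CHGB, PCSK1 and CHGA were at 492, 109 and 97.9 CPM there. INSM1, SYP and SCG5 were at 9.12, 7.57 and 5.20 CPM, and NEUROD1 was at or near 0. SCG2 was at 26.1 CPM there and was also present in HCT116 control cells, at 21.5 CPM. CPM of the lines are scaled to totals of tables that list different genes, so these levels were not compared. EPCAM, an epithelial adhesion molecule, was at 1540 CPM in HCT116 control cells, where VIL1, CDX1 and GPA33 were at or near 0. The epithelial markers KRT8 and KRT18 were present in NCI-H716 at 348 and 328 CPM in control cells, whereas CDH1, KRT20 and CDX1 were at or near 0. Before TMM scaling, the epithelial list summed to 773 and 768 CPM in control and 653 and 654 CPM in Z325 libraries of NCI-H716, and 6 of its 9 tested genes were lower without overlap. The enteroendocrine list summed to 3195 and 2831 CPM in control and 2675 and 2737 CPM in Z325 libraries, and of its 8 tested genes 5 were higher and 2 lower without overlap. The part of these shifts in the results below was not tested. Leukocyte markers summed to at most 4.41 CPM and endothelial ones to at most 0.392 CPM there. Among the fibroblast markers, COL3A1, LUM and FAP were present in NCI-H716 and COL1A1 was at or near 0. The fibroblast list summed to 588 and 571 CPM in control and 552 and 532 CPM in Z325 libraries, and its part in the results below was not tested.

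The ER folds secreted and membrane proteins. HSPA5 (BiP) binds unfolded chains and also holds the stress sensors IRE1, PERK and ATF6 inactive. When unfolded protein draws HSPA5 away, IRE1 splices the XBP1 messenger RNA into the form that encodes an active transcription factor, ATF6 is cleaved into one, and PERK slows translation while favouring ATF4 and, downstream of it, CHOP (DDIT3). Cleaved ATF6 and spliced XBP1 act on ER stress response elements in the promoters of chaperone genes. The ATF4 and CHOP arm acts mainly on amino acid transport, amino acid synthesis and cell death genes.

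The promoters of the 10 genes are shown first because several of these genes share an ER stress response element. RefSeq windows on GRCh38.p14, from 250 bases before to 50 bases after each annotated start, were found for all 10 genes (13 windows, since 3 genes have a second start). The ER stress response element (ERSE) was searched on both strands as CCAAT and CCACG with 9 bases between them, and ERSE-II as ATTGG and CCACG with 1 base between them. ERSE was present in 5 of the 10 genes (HSPA5, HSP90B1, PDIA6, XBP1 and CALR) and in 27 of all 35116 windows (0.0769%). ERSE-II was present in HERPUD1 and in 19 of all windows (0.0541%). The 10 genes were chosen as markers of the response that acts on these elements. Their share beside that of all windows is therefore a description and not a finding. HSP90B1 held a pair of ERSE matches, one in each orientation. The unfolded protein response element core TGACGTGG was in none of the 10 genes and in 256 windows (0.729%). The composite CEBP-ATF motif TGATGCAAT, which ATF4 and CHOP bind, was in none of the 10 and in 83 windows (0.236%). Only exact matches were counted, and none of 15 listed ATF4 and CHOP targets with a window held one either. Its absence from the 10 therefore does not tell whether ATF4 or CHOP act on them. The HERPUD1 window holds ttgcatca, the motif without its last letter read on the opposite strand. ERSE and ERSE-II share the letters CCACG, no window of the 10 genes held both, and a match describes letters only. PDIA4, DNAJB9, DNAJB11 and EDEM1 held none of the 4 complete motifs in their windows. The 7 matched elements are given below on the strand of the gene, with the letters that define the element in capitals. An element that starts with CGTGG is read on the opposite strand. The matches of HSP90B1 and PDIA6 precede their RefSeq starts but lie inside the longer GENCODE v44 gene spans.
HSPA5, chr9:125241391-125241409: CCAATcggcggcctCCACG
HSP90B1, chr12:103930216-103930234: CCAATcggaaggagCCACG
HSP90B1, chr12:103930321-103930339: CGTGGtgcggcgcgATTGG
PDIA6, chr2:10812853-10812871: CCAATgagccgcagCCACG
HERPUD1, chr16:56932025-56932035: ATTGGgCCACG
XBP1, chr22:28800603-28800621: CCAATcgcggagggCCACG
CALR, chr19:12938384-12938402: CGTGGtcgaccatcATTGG

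The stretches before the annotated start of HSPA5, HERPUD1 and DNAJB9 show, in that order, an ERSE, an ERSE-II and a window with neither. DNAJB9 is included because it was the member with the largest response in HCT116. Capitals mark the matched element. The stretches end where the GENCODE v44 gene begins.
HSPA5, chr9:125241383-125241593, minus strand: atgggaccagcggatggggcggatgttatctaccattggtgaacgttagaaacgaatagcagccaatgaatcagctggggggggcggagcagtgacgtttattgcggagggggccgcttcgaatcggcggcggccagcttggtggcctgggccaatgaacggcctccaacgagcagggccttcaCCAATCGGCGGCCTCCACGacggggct
HERPUD1, chr16:56931892-56932141, plus strand: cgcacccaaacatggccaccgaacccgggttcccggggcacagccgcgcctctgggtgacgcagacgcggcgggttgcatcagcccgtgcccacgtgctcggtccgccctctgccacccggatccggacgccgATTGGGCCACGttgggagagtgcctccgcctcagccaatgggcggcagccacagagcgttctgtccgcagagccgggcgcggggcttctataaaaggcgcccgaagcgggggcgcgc
DNAJB9, chr7:108569624-108569866, plus strand: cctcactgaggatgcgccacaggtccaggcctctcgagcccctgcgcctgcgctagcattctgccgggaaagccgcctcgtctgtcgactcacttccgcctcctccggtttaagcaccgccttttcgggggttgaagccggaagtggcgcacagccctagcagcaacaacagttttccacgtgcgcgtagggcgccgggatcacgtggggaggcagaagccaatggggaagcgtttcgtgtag

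**Figure D1:**
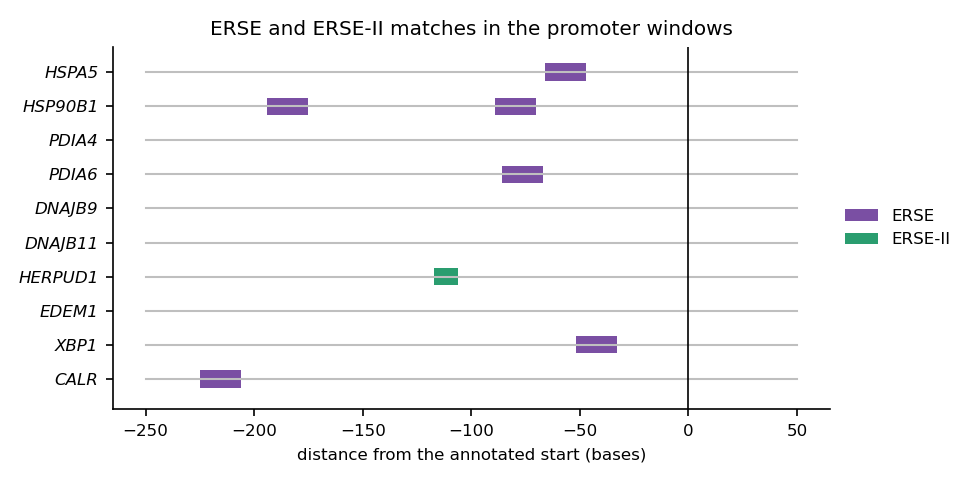
Position of the ERSE (purple) and ERSE-II (green) matches in the promoter windows of the 10 genes, as distance in bases from the RefSeq start (vertical line). A gene with a second window is drawn with the window that holds the match. The matches lie between position -225 and position -34, and 4 genes have none.

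Within NCI-H716, levels per transcript length (FPKM, as the authors deposited them) placed HSP90B1 highest and EDEM1 lowest. In control cells the means were 318 ± 55.0 FPKM for HSP90B1, 222 ± 4.79 for PDIA6, 220.4 ± 31.3 for XBP1, 145 ± 24.2 for HERPUD1, 125 ± 6.38 for CALR and 123 ± 11.6 for HSPA5 (SD, n = 2). DNAJB11 and PDIA4 followed at 68.7 ± 9.60 and 67.3 ± 1.53 FPKM, then DNAJB9 at 11.8 ± 1.80 and EDEM1 at 2.69 ± 0.0990 FPKM. PDIA6 and XBP1, then HERPUD1, CALR and HSPA5, and then DNAJB11 and PDIA4 did not differ from their neighbours in this order beyond the spread of the libraries. Together the 10 genes took 0.265% and 0.274% of the counts of the control libraries and 0.282% and 0.275% of the Z325 libraries.

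In HCT116, FPKM was computed from the deposited counts, the summed exon length and the listed total. Control means were 81.7 ± 6.18 FPKM for PDIA6, 64.3 ± 5.17 for PDIA4, 31.0 ± 0.605 for DNAJB9, 13.0 ± 1.47 for DNAJB11 and 1.16 ± 0.00618 for EDEM1. With Z325 the order changed, with DNAJB9 at 60.4 ± 0.380 FPKM above PDIA4 at 45.1 ± 8.82, and PDIA6 still highest at 70.0 ± 4.81. The length used for DNAJB11 in HCT116 was the 9385 bases of all its exons, against transcripts of 1177 to 1346 bases weighted by RSEM in NCI-H716. The FPKM of this gene therefore cannot be set side by side between the lines. Its low place in the HCT116 order also rests on the 9385 bases and is uncertain. No test was made of levels between the lines.

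**Figure D2:**
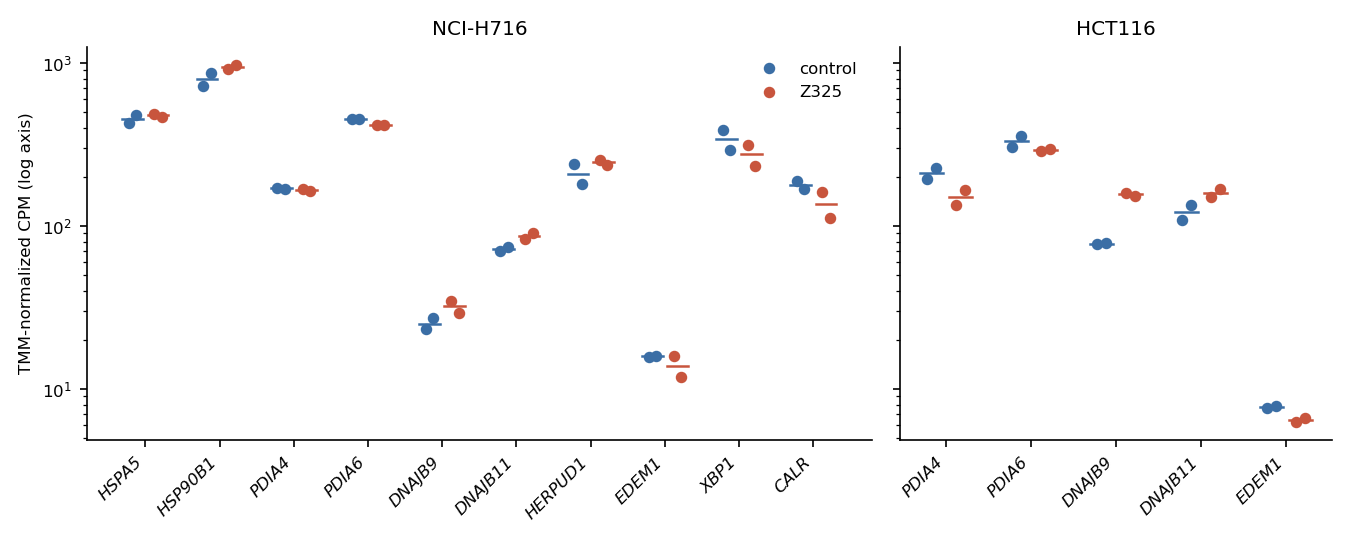
TMM-normalized CPM (log axis) of the 10 genes in NCI-H716 and the 5 listed genes in HCT116, with points for libraries, 2 for each group, and lines for group means. In HCT116 the DNAJB9 points of Z325 at 159.9 and 151.6 CPM sit apart from the control points at 76.9 and 78.4 CPM, while most other genes show groups that lie close together.

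HSPA5 and HSP90B1 are the general chaperones of the ER lumen. HSPA5 (ENSG00000044574, chr9:125234853-125241382, minus strand) encodes BiP, an ATP-driven member of the HSP70 family and the gene most used as a gauge of ER stress. Its TMM-normalized CPM in NCI-H716 were 429.7 and 475 in control and 487 and 463 in Z325 libraries. The groups overlapped, and the log2 fold change was 0.07 (SE 0.15, 95% interval -0.27 to 0.41, adjusted p = 0.857, edgeR). Without control replicate 1 it was -0.0011. In bulk libraries such as these, a change in how many cells express a gene and a change in its RNA per cell cannot be told apart.

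HSP90B1 (ENSG00000166598, chr12:103930107-103953931, plus strand) encodes GRP94, the HSP90 of the ER, which matures integrins and Toll-like receptors. Its CPM were 716.05 and 864 in control and 911 and 970.4 in Z325 libraries. Both Z325 libraries were above both controls, but the log2 fold change of 0.25 (SE 0.16, interval -0.11 to 0.61) gave an adjusted p of 0.462 in edgeR. It ran from 0.12 to 0.41 with 1 library left out. Of its exon bases, 6.15% lie in UQCC6 on the other strand.

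CALR (ENSG00000179218, chr19:12938578-12944489, plus strand) encodes calreticulin, the lectin chaperone that holds glycoproteins and stores calcium. Its CPM were 188 and 168 in control and 162 and 112 in Z325 libraries. Both Z325 libraries were below both controls. The log2 fold change was -0.38 (SE 0.20, interval -0.82 to 0.06, adjusted p = 0.355, edgeR). The value rested on Z325 replicate 2. It was -0.12 without that library and -0.67 without Z325 replicate 1. With the replicate number as a block it was -0.40 and passed the threshold (adjusted p = 0.0137, edgeR), as did 2397 of the 14142 genes tested. Over 11 alternatives its adjusted p ran from 0.0137 to 0.931. CALR shares 9.64% of its exon bases with a long noncoding RNA on the other strand.

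PDIA4 and PDIA6 encode protein disulfide isomerases, which form and rearrange disulfide bonds. PDIA4 (ENSG00000155660, chr7:149003062-149028662, minus strand) stood at 171 and 169 CPM in control and 169 and 162 CPM in Z325 libraries of NCI-H716. The groups did not overlap but lay within a few CPM of each other, with a log2 fold change of -0.04 (SE 0.15, interval -0.38 to 0.30, adjusted p = 0.921, edgeR). Without Z325 replicate 2 the value was 0.00026. In HCT116 it was lower with Z325 in both libraries, at 193 and 227 CPM in control and 134 and 167 CPM with Z325. That log2 fold change was -0.48 (SE 0.16, interval -0.86 to -0.11), with an unadjusted p of 0.0169 and an adjusted p of 0.118 in edgeR. Without the shallow Z325 replicate 2 it was -0.62 and passed the threshold (adjusted p = 0.0229, edgeR). Over 12 alternatives its adjusted p ran from 0.0229 to 0.547.

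PDIA6 (ENSG00000143870, chr2:10783391-10837977, minus strand) had narrow groups in NCI-H716, with 455 and 451 CPM in control and 418 and 415 CPM in Z325 libraries. The groups did not overlap, and the log2 fold change was -0.12 (SE 0.15, interval -0.46 to 0.21, adjusted p = 0.727, edgeR). In HCT116 the CPM were 306 and 357 in control and 286 and 296 with Z325. The log2 fold change there was -0.19 (SE 0.13, interval -0.50 to 0.12, adjusted p = 0.451, edgeR), and -0.30 to -0.08 with 1 library left out. Exons of ATP6V1C2 on the other strand cover 25.2% of its exon bases, and the library kit is not stated to keep strand, so its counts are uncertain.

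DNAJB9 and DNAJB11 encode J-domain cochaperones that deliver clients to HSPA5 and set off its ATP hydrolysis. DNAJB9 (ENSG00000128590, chr7:108569867-108574850, plus strand) encodes ERdj4, which also helps HSPA5 hold IRE1 inactive. It was the 1 gene of the 10 to pass the adjusted threshold, and it did so in HCT116. In HCT116 its CPM were 76.9 and 78.4 in control and 159.9 and 151.6 in Z325 libraries, from 1063, 1022, 2045 and 529 counts. Both Z325 libraries were far above both controls. DNAJB9 rose by a log2 fold change of 1.01 (2.01-fold, SE 0.15, interval 0.65 to 1.36, adjusted p = 0.0124, edgeR). The size of the rise held when any 1 library was left out, from 0.95 to 1.07. The call did not: the adjusted p was 0.118 without control replicate 1 and 0.153 without control replicate 2 in edgeR. It was 0.056 with limma on log2(FPKM + 0.1). Over 12 alternatives the adjusted p ran from 3.42e-06 to 0.153.

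In NCI-H716, DNAJB9 stood at 23.2 and 27.2 CPM in control and 34.8 and 29.3 CPM in Z325 libraries. Both Z325 libraries were again above both controls, with a log2 fold change of 0.35 (SE 0.21, interval -0.11 to 0.80, adjusted p = 0.421, edgeR). With 1 library left out the value ran from 0.23 to 0.48. The difference between the responses of the lines, NCI-H716 minus HCT116, was -0.67 (SE 0.25, interval -1.22 to -0.12). Its unadjusted p was 0.0208 and its adjusted p 0.261 in edgeR. The difference ran from -0.76 to -0.52 with 1 library left out. It missed the unadjusted threshold when HCT116 Z325 replicate 1, either HCT116 control, or replicate 2 of NCI-H716 control or Z325 was left out. DNAJB9 shares no exon base with another annotated gene.

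DNAJB11 (ENSG00000090520, chr3:186567403-186585800, plus strand) encodes ERdj3, a cochaperone that binds unfolded chains itself. It was higher with Z325 in both lines, without passing the adjusted threshold in either. In HCT116 the CPM were 109 and 134 in control and 149.7 and 167 with Z325, a log2 fold change of 0.38 (SE 0.16, interval 0.01 to 0.76). The unadjusted p was 0.0463 and the adjusted p 0.200 in edgeR, and the value ran from 0.24 to 0.53 with 1 library left out. In NCI-H716 the CPM were 70.0 and 74.6 in control and 82.9 and 90.6 with Z325, with a log2 fold change of 0.26 (SE 0.17, interval -0.11 to 0.63, adjusted p = 0.453, edgeR). The weighted transcript length of DNAJB11 in NCI-H716 was 1346 and 1257 bases in control and 1252 and 1177 bases in Z325 libraries. On log2(FPKM + 1), which divides by that length, the fold change was 0.43 in limma. DNAJB11 shares exon bases with 3 other annotated genes, one of them on its own strand (4.81%), and its expected counts were not whole, so its counts are uncertain.

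HERPUD1 and EDEM1 belong to ER-associated degradation. HERPUD1 (ENSG00000051108, chr16:56932142-56944864, plus strand) encodes a membrane protein that organizes the ubiquitin ligase complex around HRD1. Its CPM were 238 and 179.7 in control and 253 and 237 in Z325 libraries of NCI-H716. The groups overlapped, and the log2 fold change was 0.23 (SE 0.18, interval -0.17 to 0.62, adjusted p = 0.544, edgeR). It was 0.05 without control replicate 2 and 0.45 without control replicate 1.

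EDEM1 (ENSG00000134109, chr3:5187646-5219958, plus strand) encodes a mannosidase-like protein that hands misfolded glycoproteins to degradation. It was the least abundant of the 10 genes. In NCI-H716 it stood at 15.7 and 16.0 CPM in control and 15.8 and 11.9 CPM in Z325 libraries, with overlapping groups and a log2 fold change of -0.20 (SE 0.24, interval -0.74 to 0.34, adjusted p = 0.721, edgeR). Without Z325 replicate 2 it was 0.0094, and without Z325 replicate 1 it was -0.41. In HCT116 it stood at 7.59 and 7.90 CPM in control and 6.26 and 6.59 CPM with Z325. The last of these values rested on 23 counts, and the log2 fold change of -0.27 had an interval from -1.11 to 0.56 (adjusted p = 0.709, edgeR).

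XBP1 (ENSG00000100219, chr22:28794555-28800597, minus strand) encodes the transcription factor that IRE1 activates by splicing. Its gene count does not separate the spliced from the unspliced form. The CPM were 388 and 290.1 in control and 315 and 234 in Z325 libraries of NCI-H716. The groups overlapped, and the log2 fold change was -0.31 (SE 0.20, interval -0.75 to 0.14, adjusted p = 0.465, edgeR). It was -0.08 without control replicate 1, -0.09 without Z325 replicate 2 and -0.53 without Z325 replicate 1.

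Counted together, none of the 10 genes passed an adjusted p of 0.05 in NCI-H716 in edgeR, where 0.403% of all tested genes passed as higher and 0.099% as lower. None passed at an unadjusted p of 0.05 either, against 7.59% of all tested genes as higher and 9.26% as lower. With DESeq2 and with limma the count of the 10 was also 0 at the adjusted threshold. Under a replicate block CALR alone of the 10 passed it, as did 2397 of the 14142 genes tested. At the unadjusted threshold 4 of the 10 passed under that block, where the share over all genes was not computed. Libraries of the groups did not overlap for 3 genes that were higher (HSP90B1, DNAJB9 and DNAJB11) and 3 that were lower (CALR, PDIA4 and PDIA6). Over all tested genes those shares were 24.3% higher and 25.1% lower. The fitted values were 5 above and 5 below 0, with a median of 0.02, beside a median of -0.01 over all genes tested.

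At the adjusted threshold, HCT116 had 1 higher gene among its 5 (DNAJB9) and no lower one, against 2.83% and 2.94% of all tested genes. At an unadjusted p of 0.05 there were 2 higher (DNAJB9 and DNAJB11) and 1 lower (PDIA4), against 11.2% and 12.7% of all tested genes. The groups did not overlap for any of the 5, with 2 higher and 3 lower, where 24.8% and 29% of all tested genes were so placed. The median log2 fold change was -0.19, beside -0.03 over all genes tested. The 5 genes took 0.0717% and 0.0794% of counts in control and 0.0703% and 0.0801% in Z325 libraries.

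The difference of the responses between lines was tested for the 5 genes listed in both tables. None passed an adjusted p of 0.05 in edgeR, as 0.0654% of all tested genes did, and 1 (DNAJB9) passed an unadjusted p of 0.05, as 14.3% did. The count at the adjusted threshold was 0 with DESeq2 too. For PDIA4 the difference was 0.43 (SE 0.22, interval -0.05 to 0.91, adjusted p = 0.396, edgeR). For DNAJB11, PDIA6 and EDEM1 it was -0.13, 0.05 and 0.06, with intervals of -0.63 to 0.36, -0.37 to 0.47 and -0.82 to 0.95. The differences of PDIA6 and EDEM1 turned to -0.028 and -0.020 with DESeq2.

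The balance between DNAJB9 and its partners was described within each library, since a ratio of counts in one library does not depend on its depth. In HCT116, the counts of DNAJB9 divided by those of PDIA4 were 0.398 and 0.346 in control and 1.19 and 0.909 in Z325 libraries. Relative to PDIA6 they were 0.251 and 0.220 in control and 0.559 and 0.512 with Z325. The ratio to DNAJB11, the other J-domain cochaperone, was 0.708 and 0.587 in control and 1.07 and 0.907 with Z325. All 4 ratios in HCT116 were higher in both Z325 libraries than in both controls. They share the counts of DNAJB9, so they restate its rise and are not separate results, and 24.8% of all tested genes were themselves higher without overlap.

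In NCI-H716 the ratio to HSPA5, the partner that DNAJB9 serves, was 0.0539 and 0.0571 in control and 0.0715 and 0.0631 with Z325. It was above both controls in both Z325 libraries, as were 6 of the 9 ratios. The other 3, to HSP90B1, DNAJB11 and HERPUD1, overlapped. DNAJB9 itself was higher without overlap in this line, as were 24.3% of all tested genes, and all these ratios share its counts. These ratios show unequal change and not which gene of a pair moved.

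**Figure D3:**
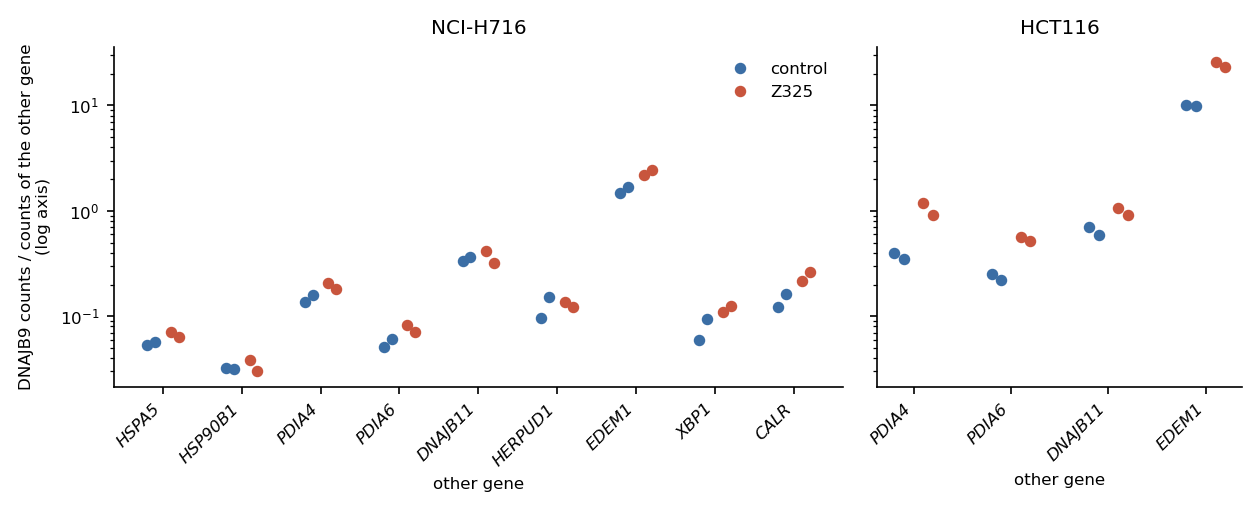
Counts of DNAJB9 divided by the counts of each other gene in the same library (log axis), with points for libraries, 2 for each group. All 4 ratios in HCT116 and 6 of 9 in NCI-H716 are higher in both Z325 libraries than in both control libraries.

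Other genes of the pathway were taken from 8 lists of ER functions. In HCT116 each list was cut to the genes of the table used here, so its counts and median cover other gene sets than in NCI-H716. Among the other ER folding factors, 29 genes were tested in NCI-H716, where 9 had a fitted value above 0 and 20 below it, with a median log2 fold change of -0.14. None passed the adjusted threshold in edgeR, and at an unadjusted p of 0.05 there were 1 higher and 6 lower. SDF2L1, a partner of HSPA5 and its cochaperones, stood at 91.1 and 53.5 CPM in control and 41.6 and 33.2 CPM in Z325 libraries, a log2 fold change of -0.95 (SE 0.25, adjusted p = 0.129, edgeR). HYOU1, a large HSP70-like exchange factor for HSPA5, had a log2 fold change of -0.91 and CRELD2, a disulfide isomerase, one of -0.62. None of these 3 genes passed the adjusted threshold. Both Z325 libraries were below both controls for them, as for 12 of the 29 genes of the list and 25.1% of all tested genes, and above both controls for 3 of the 29. In HCT116 12 folding factors were tested, 7 above and 5 below 0 (median 0.19), with 4 higher and none lower at the unadjusted threshold. SDF2L1, HYOU1 and CRELD2 were not among those 12. TXNDC12, a thioredoxin-like oxidoreductase, was at 0.65 and SELENOF, a selenoprotein of folding control, at 0.37, with adjusted p of 0.0703 and 0.134 in edgeR.

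The genes of ER-associated degradation were balanced in both lines. In NCI-H716, 26 were tested, 14 above and 12 below 0 (median 0.05), none passed the adjusted threshold, and 3 were higher and 4 lower at the unadjusted one. SEL1L, the scaffold of the HRD1 ligase, had a log2 fold change of 0.59, while AUP1 and UFD1, factors of recruitment and extraction, had -0.76 and -0.56. In HCT116, 12 were tested, 7 above and 5 below 0 (median 0.08). UBXN4, a membrane anchor for the VCP segregase, rose there by 0.58 (SE 0.12, adjusted p = 0.0326, edgeR), and FAF2, another VCP adaptor, had -0.40 with an adjusted p of 0.114.

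The sensors and regulators of the response were tested as 22 genes in NCI-H716, 14 above and 8 below 0 with a median of 0.21. TRIB3, a pseudokinase induced by ATF4 and CHOP, passed the adjusted threshold. Its CPM were 80.4 and 89.6 in control and 221 and 238 with Z325, and it rose by 1.43 (SE 0.16, adjusted p = 0.00413, edgeR). DDIT3, which encodes CHOP, stood at 160.1 and 186 CPM in control and 349 and 294 CPM with Z325 (log2 fold change 0.90, SE 0.17, adjusted p = 0.0572, edgeR). ATF4 stood at 169 and 181 CPM in control and 281 and 379 CPM with Z325 (0.91, SE 0.18, adjusted p = 0.0667, edgeR). For DDIT3 and ATF4 both Z325 libraries were above both controls, while the adjusted p missed the threshold. In HCT116, 8 genes of this list were tested, 3 above and 5 below 0 (median -0.13), and none passed the adjusted threshold. TRIB3, DDIT3 and ATF4 were not tested in HCT116 here, so the medians of the lines cover different genes. The study itself names DDIT3 among its up-regulated genes in HCT116. ATF6 had a log2 fold change of 0.28 and NFYC, a subunit of the factor that binds the CCAAT letters of ERSE, one of -0.51, with adjusted p of 0.322 and 0.174 in edgeR.

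The targets of ATF4 and CHOP were the list whose median lay farthest above 0 in both lines. All lists were chosen with earlier results of these data known, so this place among the lists is a description and not separate support. In NCI-H716 all 17 tested genes had a fitted value above 0, with a median log2 fold change of 1.14. All 17 were higher without overlap of the groups, against 24.3% of all tested genes. At the unadjusted threshold 15 were higher, against 7.59% of all tested genes. Those that passed the adjusted threshold were ASNS, PHGDH, SLC3A2, SLC7A11 and GDF15. SLC7A11, the cystine importer, stood at 43.8 and 54.9 CPM in control and 236 and 233 CPM with Z325, and rose by 2.25 (SE 0.18, adjusted p = 0.000413, edgeR). ASNS, asparagine synthetase, rose by 1.21 and SLC3A2, the heavy chain that pairs with SLC7A11, by 1.14. In HCT116, 7 genes were tested, 6 above and 1 below 0 (median 0.69), and SLC7A11, STC2 and CTH passed. The 1 below 0 was ASNS, at -0.10 (unadjusted p = 0.930, adjusted p = 0.972, edgeR). Its interval is not given here, so this value does not show that ASNS was unchanged. SLC7A11 stood at 136 and 118 CPM in control and 745 and 858 CPM with Z325, and rose by 2.66. STC2, a secreted glycoprotein, rose by 1.17 (SE 0.22, adjusted p = 0.0233, edgeR). No test compared this list with the 10 genes; their values stand side by side, with medians of 0.02 and 1.14 in NCI-H716 and -0.19 and 0.69 in HCT116.

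Protein import, glycosylation, transport and calcium handling completed the lists. For ER protein import the median was 0.06 over 22 genes in NCI-H716 (12 above and 10 below 0, none at the adjusted threshold) and 0.35 over 13 genes in HCT116 (10 above, 3 below). SPCS3, a signal peptidase subunit, rose by 0.67 and SRP19, a protein of the signal recognition particle, by 0.69 in HCT116. In NCI-H716, SEC63, the J-domain protein of the import channel, had 0.60, SSR4 0.42 and SPCS1 -0.47, with adjusted p of 0.170, 0.246 and 0.232 in edgeR.

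For N-glycosylation and glycan trimming, 20 genes were tested in NCI-H716, 7 above and 13 below 0 (median -0.20). PRKCSH, ALG3 and DPAGT1 had -1.51, -1.12 and -0.47 there, with adjusted p of 0.176, 0.197 and 0.270 in edgeR. In HCT116, 9 were tested, and 2 rose and 3 fell at the adjusted threshold (DDOST, RPN1, OSTC, ALG3 and ALG6). ALG3, a mannosyltransferase, fell by 1.14 and RPN1, a subunit of the oligosaccharyltransferase, fell by 0.84 in HCT116 (adjusted p = 0.0114 and 0.0202, edgeR).

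For ER to Golgi transport, 22 genes in NCI-H716 had a median of -0.01 (11 above, 11 below) and 11 genes in HCT116 one of -0.06 (5 above, 6 below). BET1, a SNARE of that step, rose by 0.86 in HCT116 (adjusted p = 0.0185, edgeR), and LMAN2, a cargo lectin, had -0.81 there and -0.83 in NCI-H716. USO1 and SEC16A had 0.66 and 0.54 in NCI-H716. For ER calcium handling, 14 genes in NCI-H716 had a median of 0.06 (9 above, 5 below) and 7 genes in HCT116 one of -0.34 (3 above, 4 below), with none at the adjusted threshold. ITPR1, a calcium release channel, had 1.14, RCN1, a calcium-binding protein, 0.75 and TMBIM6 0.30 in NCI-H716. ITPR3 and SDF4 had -1.25 and -0.89 in HCT116.

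The promoter classes were then read beside the fold changes, a description added after the values were known. At the unadjusted threshold, 7.59% of all tested genes were higher and 9.26% lower in NCI-H716, and 11.2% and 12.7% in HCT116. At the adjusted threshold in HCT116 the shares were 2.83% and 2.94%. The medians over all tested genes were -0.01 in NCI-H716 and -0.03 in HCT116. Of the genes with an ERSE anywhere in the annotation, 16 were tested in NCI-H716, 7 above and 9 below 0 with a median of -0.11. In HCT116, 6 were tested, 4 above and 2 below 0 with a median of 0.19. Leaving out the genes described here, 11 remained in NCI-H716, 5 above and 6 below 0 (median -0.11). In HCT116 5 remained, 4 above and 1 below 0 (median 0.29). None passed the adjusted threshold in either line in edgeR, and 1 was higher and 1 lower at the unadjusted threshold in each. Among them, CRELD2 had -0.62 and CANX, the membrane-bound relative of CALR, 0.39 in NCI-H716. Of the genes with an ERSE-II, 13 were tested in NCI-H716, 5 above and 8 below 0 with a median of -0.07, and 3 were lower and none higher at the unadjusted threshold. In HCT116, 3 were tested, 1 above and 2 below 0, and 1 was higher at the unadjusted threshold. SDF2L1 and HYOU1, described above at -0.95 and -0.91, hold an ERSE-II as HERPUD1 does. DNAJB9, which rose in HCT116, holds neither element in its window. Genes with the unfolded protein response element core numbered 122 tested in NCI-H716, 75 above and 47 below 0 with a median of 0.13, and at the unadjusted threshold 19 were higher and 11 lower. In HCT116 they numbered 50, 24 above and 26 below 0 with a median of -0.07, with 9 higher and 8 lower at the unadjusted and 2 and 2 at the adjusted threshold. Genes with the CEBP-ATF motif numbered 19 in NCI-H716 (median 0.14, 3 higher and 2 lower at the unadjusted threshold) and 8 in HCT116 (median 0.16, 3 higher and none lower).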

How the data were processed

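RNA from HCT116 and NCI-H716 cells, control or given Z325, had been sequenced after full-length cDNA amplification. The labels list Bowtie2 2.5.0, featureCounts and hg38, whereas the study's methods name TrimGalore, STAR and RSEM on GRCh38. For NCI-H716 the authors deposited RSEM expected counts, TPM and FPKM per gene and library, together with transcript lengths. For HCT116 the authors deposited raw counts per gene for all 4 libraries. Of the 28047 lines of that table used here, 4 were broken or unfinished and were left out, and on chromosomes 1 to 8 it listed no less than 99.8% of annotated genes (GENCODE v44). The authors' handling of reads shared by overlapping genes is not given in the sources used here.

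Expected counts were rounded. Each line was fitted alone in edgeR 4.0.16 (R 4.3.3) with TMM scaling, filterByExpr and the quasi-likelihood test, with Benjamini-Hochberg adjustment over the 14142 genes tested in NCI-H716 and the 6491 in HCT116. The difference between lines was the interaction term over 7642 genes in all 8 libraries. DESeq2 1.42.0, limma 3.58.1 on log2(FPKM + 1) and log2(FPKM + 0.1), other filters and scalings, a replicate block and leaving out each library were alternatives. Fits were tested on simulated data. TMM factors ran from 0.956 to 1.04, and the biological coefficient of variation was 0.203 in NCI-H716 and 0.245 in HCT116. With 2 libraries a group, an exact permutation test of 1 value cannot go below p = 0.333. Counting intervals are not given, since these reads carry no molecular identifiers. Replicates of a group differed by more than sampling noise and were all kept.

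The members and gene lists were chosen with earlier results of these data known. The text names all members and, from each list, the 3 genes with the smallest unadjusted p in NCI-H716 and the 2 in HCT116, plus those past the adjusted threshold. CANX was named after its values were seen. Gene positions are from GENCODE v44 and promoters from RefSeq GRCh38.p14. Protein sequences were not used here.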

Additional observations from a re-analysis of the deposited data

How the results depend on the processing

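The log2 fold changes of the 10 genes were recomputed under each alternative, except that the fit of all 8 libraries covers only the 5 genes listed in both lines. Of these values, 217 kept their direction and their side of the threshold, 3 gained a call, 3 lost one and 7 turned their direction. In NCI-H716, leaving out 1 library took EDEM1 from -0.41 to 0.0094, turning without Z325 replicate 2, PDIA4 from -0.062 to 0.00026 with the same library left out, and HSPA5 from -0.0011, without control replicate 1, to 0.16. For the difference between lines, PDIA6 was -0.028 and EDEM1 -0.020 with DESeq2, and leaving out 1 library gave -0.031 to 0.15 for PDIA6 and -0.12 to 0.27 for EDEM1. The call of DNAJB9 in HCT116 was lost with limma on log2(FPKM + 0.1) (0.96, adjusted p = 0.056), leaving 0 of the 5 genes called, and kept with limma on log2(FPKM + 1).

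The number of genes called moved far more than the values. In NCI-H716 it was 71, and 310 with DESeq2, 787 without a filter, 19 with all 8 libraries in 1 fit and 6 with limma at either pseudocount. In HCT116 it was 375, and 733 with DESeq2, 683 without a filter, 615 with at least 10 counts in every library, and 37 and 47 with limma at pseudocounts of 0.1 and 1. For the difference between lines it was 5, and 116 with DESeq2. The cause was not tested. Leaving out 1 library gave between 62 and 1398 called genes in NCI-H716, between 23 and 1076 in HCT116 and between 0 and 63 for the difference. Members called then numbered 0 to 1 in NCI-H716, 0 to 2 in HCT116 and 0 for the difference, and at the unadjusted threshold 0 to 2, 2 and 0 to 2. In these fits the lone library of a group was assumed to vary like the others. The share of all genes at the unadjusted threshold was not computed for these fits, so the member counts cannot be set against it.

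The replicate numbers did not establish pairs, since the deviations of same-numbered libraries correlated at -0.03 in HCT116 and 0.20 in NCI-H716, with only 2 pairs in each line. With the number as a replicate block, 2397 genes were called in NCI-H716 and 12 for the difference between lines. Under that block CALR passed in NCI-H716 (-0.40, adjusted p = 0.0137, edgeR), as the 1 member called. At the unadjusted threshold 4 members passed in NCI-H716 and 2 for the difference, where the share over all genes was not computed. The shallow HCT116 library and the low counts of EDEM1 limit what could be detected there, and 5 of the 10 genes were not analysed in HCT116.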
